A study of Mus musculus with 2 samples.

Results

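The colony-stimulating factor receptor gene Csf1r, its ligand genes Csf1 and Il34, and 7 further genes used to recognise macrophages were examined in the face of the mouse embryo. The 10 genes were taken by symbol (Csf1r, Csf1, Il34, C1qa, C1qb, C1qc, Cx3cr1, Mrc1, Adgre1 and P2ry12) from 22028 protein-coding genes, and each symbol matched 1 gene. PolyA plus RNA-seq libraries had been made from embryonic facial prominence, the swellings from which the face forms, taken from B6NCrl embryos at 12.5 days. Replicate 1 was a pool of 120 embryos and replicate 2 a pool of 88, each of mixed sex, with no treatment or engineered allele named in the labels. These 2 libraries form 1 group, so levels are described and no condition is compared. Estimated reads summed to 28705073 in replicate 1 and 41092194 in replicate 2. With many embryos in each pool, single embryos, sexes and parts of the face were not measured apart.

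Macrophages of the embryo arise largely from early yolk sac progenitors, spread through the tissues and take up dying cells. Their survival and growth depend on Csf1r, a receptor tyrosine kinase made by the macrophage itself, while its ligands come mostly from the cells around it. Both ligands, Csf1 and Il34, bind the same receptor, although their amino acid sequences are hardly alike, and Il34 is best known from skin epithelium and neurons. C1qa, C1qb and C1qc encode the chains of C1q, which starts the classical complement pathway and in tissues is made chiefly by macrophages.

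All 8 macrophage genes were present in both pools, and of the ligands Csf1 was far above Il34. Levels are given as the deposited TPM, an abundance corrected for transcript length and library size, and different genes can be set side by side within a library. A gene was counted as detected where neither library was below a TPM of 1. By that measure 9 of 10 members were detected, where 60.7% of all protein-coding genes were, and Il34 was the member that was not. The members lay in the middle of the range of expression. The highest, C1qb, exceeded 70.5% of protein-coding genes, Csf1r exceeded 56.6%, P2ry12 41.3% and Il34 34.3%. The median over detected protein-coding genes was 21.5 TPM, a level that only C1qb passed.

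**Figure D1:**
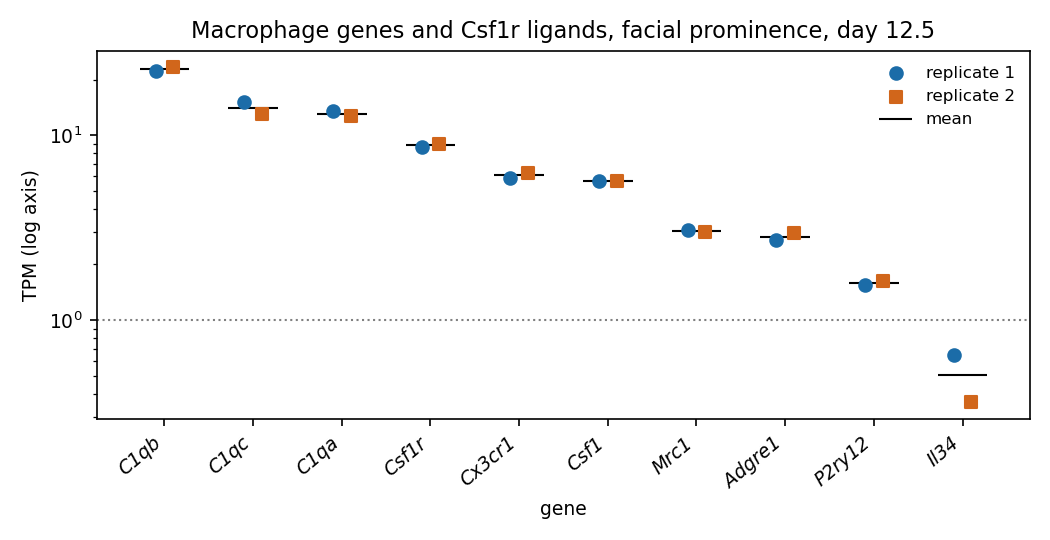
TPM (log axis) of the 10 genes in replicate 1 (circles) and replicate 2 (squares), with the mean as a bar and a TPM of 1 as a dotted line. C1qb is highest at 22.7, and Il34, at 0.65 and 0.36, is the gene below the dotted line.

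The receptor Csf1r (ENSMUSG00000024621.16, mm10 chromosome 18, 61100598 to 61132149) stood at 8.64 TPM in replicate 1 and 8.97 in replicate 2, a mean of 8.80 ± 0.233 (SD, n = 2). These levels rested on 712.13 and 1072.9 estimated reads. The values of both pools were close together, and the exact 95% interval of the scaled count ratio of replicate 2 over replicate 1 ran from 0.959 to 1.16. This interval, like all count intervals here, covers counting error only. Csf1r was the member whose counts were not whole, as estimated counts are where reads were divided between genes. Its longest transcript, Csf1r-202, shares 873 exon bases with Hmgxb3, a gene on the other strand that stood at 19.74 and 18.16 TPM. Csf1r-202 carried 90.93% of Csf1r abundance in replicate 1 and 96.79% in replicate 2. The transcript Csf1r-201, with as many coding bases (2931) but no overlap with Hmgxb3, carried 7.52% and 3.21%. No source used here says whether strand was used in counting, so how far reads of Hmgxb3 add to the Csf1r level was not tested. In tissue RNA, fewer cells of a type and less RNA per cell cannot be told apart, here and for every gene below.

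Csf1, the broadly made ligand (ENSMUSG00000014599.10, chromosome 3, 107741048 to 107760469), stood at 5.67 and 5.63 TPM (5.65 ± 0.0283, n = 2), from 351 and 533 reads. Both pools gave nearly the same level. The receptor was above this ligand in both libraries, by 1.52-fold (counting interval 1.34 to 1.74) in replicate 1 and 1.59-fold (1.44 to 1.77) in replicate 2.

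Il34, the second ligand (ENSMUSG00000031750.15, chromosome 8, 110741829 to 110805924), stood at 0.65 and 0.36 TPM (0.505 ± 0.205, n = 2). It had 15 reads in each library. The level was lower in replicate 2, but the interval of the scaled count ratio, 0.319 to 1.54, spans 1, so a difference between the pools was not detectable at this depth. The reads were also placed on different transcripts. In replicate 2 Il34-201 held 100% of the abundance, whereas in replicate 1 it held 0, Il34-204 held 59.87% and the noncoding Il34-205 held 40.13%. With 15 reads these assignments give no reliable isoform of Il34. The deposited posterior mean, a second TPM estimate, was higher at 1.19 and 0.88. Of the overlapping antisense genes, Gm15894 had 0 reads in both libraries and Gm15895 had 1 read in replicate 1 and 0 in replicate 2.

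Csf1 therefore exceeded Il34 in each pool. The TPM ratio was 8.72 (counting interval 5.20 to 15.7) in replicate 1 and 15.6 (9.49 to 28.4) in replicate 2, a mean log2 ratio of 3.55 ± 0.60 (n = 2). With posterior mean TPM the mean log2 ratio was 2.60, smaller but of the same direction.

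The Csf1 transcripts divide into forms that encode different proteins, which is why the sequences at the point where they part are shown. Csf1-201 and Csf1-203 have the same coding sequence of 1656 bases. Csf1-202 codes over 771 bases, and the only coding exon in which it differs from Csf1-201 is exon 6, which spans 1016 bases (chromosome 3, 107748154 to 107749169) in the long form and 131 bases (107748154 to 107748284) in the short form. The 885 bases left out are 295 whole codons, so the reading frame is kept. The stretch encoded by this part of exon 6 is known to hold the sites at which the growth factor is cut free, and the short form is known as the form that stays on the cell surface. Read from the GENCODE M21 transcripts, 5′ to 3′, with the end of exon 5 in lower case and the start of exon 6 in capitals, the junctions are
Csf1-201: agtgctctagccgagATGTGGTGACCAAGC
Csf1-202: agtgctctagccgagGCCATGTGGAGCAGC
The shared lower-case bases are followed by different coding sequence in the long and the short form.

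Both coding forms of Csf1 were present in each pool. The long form (Csf1-201 with Csf1-203) reached 3.20 TPM in one pool (replicate 1) and 3.45 in the other, and the short form at 2.46 and 2.03 TPM. As a share of Csf1 abundance, the long form took 56.6% and 61.4% (59.0% ± 3.38, n = 2), and the short form took 43.4% and 36.1% (39.8% ± 5.12, n = 2). The long form was ahead in both libraries. Within the long form, Csf1-203, which differs from Csf1-201 at its 3′ end, held 11.19% in replicate 1 and 0 in replicate 2. A transcript with a retained intron, Csf1-206, held 0 and 2.47%. The estimates rest on 216.9 and 368.2 reads for the long form and 134.1 and 157.3 for the short form, placed by a model, and no interval is given because reads shared by the transcripts were divided between them.

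**Figure D2:**
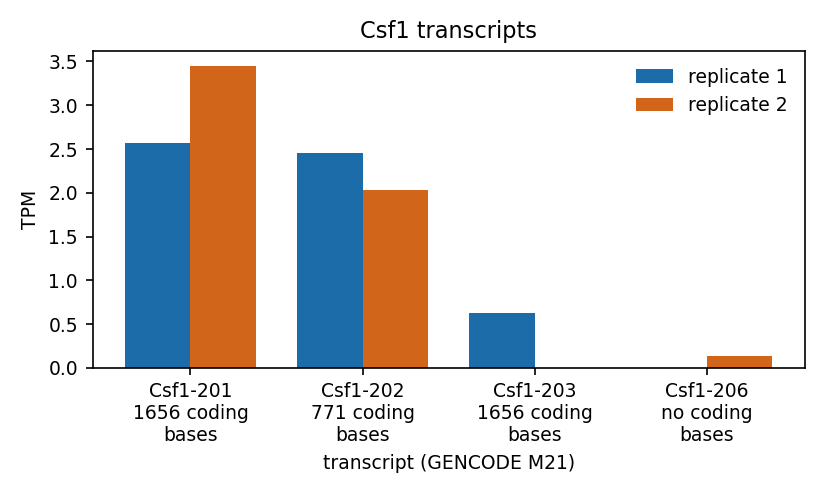
TPM of the Csf1 transcripts with any abundance, in replicate 1 (left bar of each pair) and replicate 2 (right bar), with their coding length. Csf1-201 reaches 2.57 and 3.45 TPM and the short form Csf1-202 2.46 and 2.03 TPM.

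The genes of the C1q chains were the highest members. They lie side by side on the minus strand of chromosome 4, C1qb at 136880129 to 136886187, C1qc at 136889804 to 136893065 and C1qa at 136895917 to 136898803, within 18675 bases in all. C1qb stood at 22.16 TPM in replicate 1 and 23.24 in replicate 2 (22.7 ± 0.764, n = 2). C1qc stood at 15.05 and 12.95 TPM (14.0 ± 1.48), and C1qa at 13.55 and 12.64 TPM (13.1 ± 0.643). C1qb was above its neighbours in both pools, while C1qc and C1qa overlapped. The ratio of C1qb to C1qa was 1.64 (counting interval 1.39 to 1.93) in replicate 1 and 1.84 (1.60 to 2.12) in replicate 2, and that of C1qb to C1qc was 1.47 (1.27 to 1.71) and 1.79 (1.58 to 2.05). For C1qc over C1qa it was 1.11 (0.934 to 1.32) and 1.02 (0.879 to 1.19), so these genes did not differ beyond counting error. The chains enter the C1q protein in equal numbers, whereas the transcript of C1qb was above the other two in these libraries.

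Promoter sequence is shown for C1qb and C1qc, neighbouring genes whose products join in 1 protein. The letters GAGGAA, a purine-rich core bound by the myeloid factor Spi1 and by other ETS proteins, were searched on both strands (GAGGAA or TTCCTC) in the 250 bases before each RefSeq start (GRCm38.p6). Windows of 6 members were found. The letters occurred in 3 of them (C1qb, C1qc and Mrc1), beside 23.4% of 32536 distinct windows over all RefSeq genes. Csf1, Cx3cr1 and P2ry12 had none in this window. The bases upstream of both the RefSeq and the GENCODE start are printed, 5′ to 3′ on the minus strand, with the searched letters in capitals (C1qb at chr4:136886201-136886450, C1qc at chr4:136893066-136893164, mm10):
C1qb: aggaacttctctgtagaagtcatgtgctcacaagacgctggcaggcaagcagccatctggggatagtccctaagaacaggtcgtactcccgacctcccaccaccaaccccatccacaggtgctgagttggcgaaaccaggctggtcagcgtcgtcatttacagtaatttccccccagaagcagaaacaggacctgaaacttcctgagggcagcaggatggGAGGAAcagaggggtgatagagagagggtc
C1qc: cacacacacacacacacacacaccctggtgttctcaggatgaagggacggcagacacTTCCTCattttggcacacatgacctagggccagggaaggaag
The letters begin 43 bases upstream of the GENCODE start in C1qb and 42 bases upstream in C1qc, on opposite strands. These near-equal distances hold for the GENCODE starts only. The RefSeq start lies upstream of the GENCODE start in C1qb and downstream of it in C1qc, so distances from the RefSeq starts are not alike. Binding was not measured.

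Surface receptors of macrophages were lower than the C1q genes. Cx3cr1, the receptor for the chemokine Cx3cl1 (chromosome 9, 119901616 to 120069879), stood at 5.87 and 6.25 TPM (6.06 ± 0.269, n = 2). Cx3cl1 itself was at 3.58 and 4.12 TPM. Most Cx3cr1 abundance was on Cx3cr1-202, at 79.65% and 81.36%. Mrc1, the mannose receptor of tissue macrophages (chromosome 2, 14229392 to 14332057), stood at 3.06 and 2.98 TPM (3.02 ± 0.0566). Adgre1, the adhesion receptor widely used to stain mouse macrophages (chromosome 17, 57358691 to 57483527), stood at 2.70 and 2.95 TPM (2.83 ± 0.177), and its posterior mean TPM was 3.37 and 3.46. P2ry12, a receptor for extracellular ADP that in adults marks microglia (chromosome 3, 59216272 to 59262871), was the lowest of the detected members. It stood at 1.55 and 1.62 TPM (1.58 ± 0.0495), from 43 and 78 reads. Megakaryocyte genes were also detected in these libraries, and the part of such cells in this level was not tested. The P2ry12 gene lies within Med12l, on the other strand. In the older annotation release P2ry12 is built on fewer transcripts, and its level there was 1.17 and 1.48 TPM.

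The members thus ran from C1qb through C1qc, C1qa, Csf1r, Cx3cr1, Csf1, Mrc1, Adgre1 and P2ry12 to Il34. Of the neighbours in this order, C1qc and C1qa, Cx3cr1 and Csf1, and Mrc1 and Adgre1 did not differ beyond counting error. Cx3cr1 over Csf1 was 1.04 (0.890 to 1.21) and 1.11 (0.983 to 1.26), and Mrc1 over Adgre1 was 1.13 (0.933 to 1.39) and 1.01 (0.859 to 1.19). Every other neighbouring pair kept its order in both libraries, with intervals above 1. Csf1r exceeded Cx3cr1 by 1.47-fold (1.29 to 1.68) and 1.44-fold (1.29 to 1.60), and Adgre1 exceeded P2ry12 by 1.74-fold (1.23 to 2.49) and 1.82-fold (1.41 to 2.39).

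The pools were close in the 10 genes, with Il34 the least precise. Replicate 2 was set against replicate 1 by the log2 ratio of TPM + 1, which understates differences of low genes, and a 2-fold difference was the limit for a call. None of the 10 members passed it, where 0.182% of all protein-coding genes did. The members' log2 ratios ran from -0.28 (Il34) to 0.09 (Adgre1) with a median of 0.02, beside a median of 0.00 over detected protein-coding genes, 95% of which lay between -0.39 and 0.34. By TPM, 5 members were higher in replicate 2 and 5 lower. The 8 macrophage genes summed to 72.6 and 71.6 TPM. The count ratio interval left out 1 for 1 of 10 members, C1qc, at 0.854 (0.732 to 0.996), where 28.0% of protein-coding genes with at least 10 reads in all did so. This sets 1 library against 1 library and has no replicate check. On spike-in scaling the median over detected genes moved to -0.13 and that over the members to -0.10, with all 10 members below 0.

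**Figure D3:**
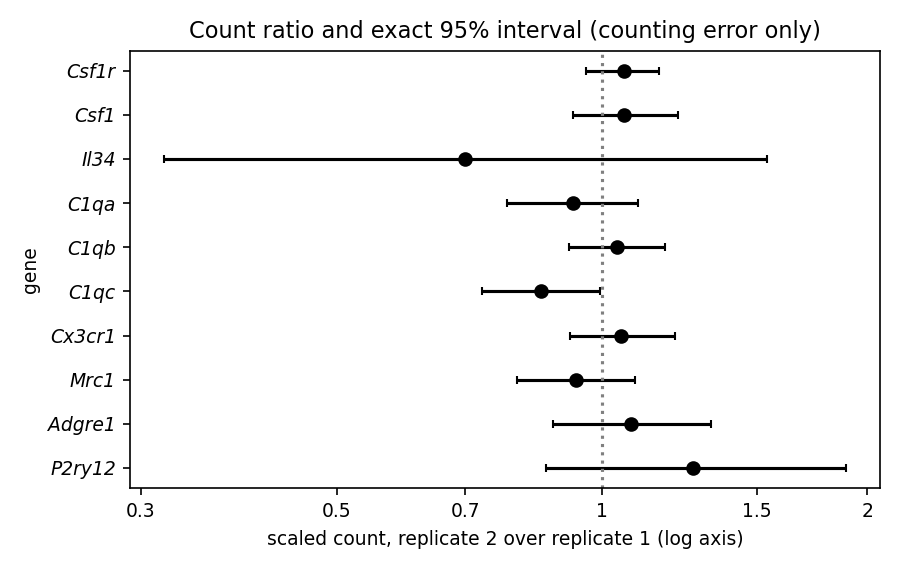
Scaled count of replicate 2 over replicate 1 (log axis) for each gene, with the exact 95% interval for counting error. The intervals of 9 genes span 1, that of C1qc ends at 0.996, and that of Il34, from 0.319 to 1.54, is the widest.

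Other macrophage genes were present at similar levels. Of 20 listed genes that macrophages share, several with other white blood cells, 16 were detected, where 60.7% of all protein-coding genes were. The 20 genes had a median of 5.25 TPM in replicate 1 and 5.29 in replicate 2, beside 7.26 and 7.61 for the 8 macrophage members. The actin regulators Coro1a (30.61 and 29.54 TPM) and Lcp1 (19.07 and 20.02 TPM) led, followed by the signalling chain Fcer1g (18.55 and 18.22 TPM) and the lysosomal protein Laptm5 (17.06 and 15.23 TPM). Coro1a and Lcp1 are not limited to macrophages. The integrin chain Itgam (0.58 and 0.69 TPM), the oxidase subunit Cybb (0.65 and 0.78 TPM) and Mpeg1 (0.32 and 0.38 TPM), a pore-forming protein of phagocytes, were below 1 in both pools. None of the 20 passed a 2-fold difference between the pools.

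Transcription factors of the myeloid lineage were detected in 8 of 8 listed genes, beside 60.7% of all protein-coding genes. Spi1, the factor on which macrophages depend and an activator of Csf1r, stood at 3.84 and 3.09 TPM, and Irf8 at 3.44 and 3.67. Runx1 was at 12.41 and 10.79 TPM and Zeb2 at 37.24 and 38.51, but these are also made by mesenchyme, epithelium or neurons. Genes listed for Csf1r signalling, whether they carry or dampen the signal, were detected in 11 of 11. They ranged from the general adaptor Grb2 at 92.86 and 90.10 TPM to Vav1, an exchange factor of blood cells, at 1.33 and 1.68. Median levels of this list were 5.71 and 5.00 TPM.

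Genes that tell macrophages of different sites apart gave a mixed picture. Of 9 microglia-associated genes, 6 were detected, near the 60.7% of all protein-coding genes that were. Tmem119 stood at 92.47 and 90.36 TPM, above all 10 members, and is also known from bone-forming cells. Olfml3 (27.40 and 28.83 TPM) is likewise expressed outside macrophages. Of the more restricted genes, Fcrls stood at 6.31 and 6.07 TPM, near the member Cx3cr1 (5.87 and 6.25 TPM). P2ry13 (0.69 and 0.58 TPM) and Siglech (0.41 and 0.52 TPM) were below 1 in both pools. Of 10 genes linked to resident macrophages, 5 were detected, so neither count stands out from the share over all genes. The scavenger receptor Stab1, also made by endothelium, was at 23.26 and 22.19 TPM, the transglutaminase F13a1 at 5.29 and 5.68 and Cbr2 at 4.78 and 4.59. The hemoglobin scavenger receptor Cd163 (0.03 and 0.01 TPM) and the receptor for dying cells Timd4 (0.08 and 0.09 TPM) rested on 5 or fewer reads in each library.

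Markers of other cells that the tissue could hold were read the same way, beside the 60.7% of all protein-coding genes that were detected. Facial genes were detected in 7 of 7, with medians of 94.1 and 85.8 TPM, and Msx1 stood at 318.59 and 308.35. The pools differed beyond counting error in several genes of this list, where 28.0% of protein-coding genes with at least 10 reads in all did so. Krt14 (scaled count ratio 0.881, interval 0.835 to 0.928), Prrx1 (0.941, 0.919 to 0.963) and Msx1 (0.962, 0.938 to 0.986) were slightly lower in replicate 2. The largest shifts of the list were in Alx1 and Dlx5, which are regional in the face. Alx1 was higher in replicate 2, at 102.62 and 149.87 TPM (scaled count ratio 1.45, interval 1.40 to 1.51), and Dlx5 was lower, at 80.75 and 54.78 TPM (0.672, 0.631 to 0.717). The part of these shifts in the levels of the members was not tested. Endothelial genes were detected in 5 of 5, with a median of 22.7 TPM in each library. Megakaryocyte genes were detected in 5 of 5 (summed TPM 70.3 and 65.3), led by Pf4 at 49.36 and 44.27 TPM, a gene of platelets that is also listed for macrophages. Of 10 monocyte and neutrophil genes 6 were detected (summed TPM 30.3 and 34.8), with S100a8 at 13.18 and 14.32 TPM and the monocyte receptor Ccr2 at 0.72 and 0.64. Of 11 mast cell, lymphoid and dendritic genes 2 were detected (summed TPM 11.6 and 10.9). These were Zbtb46, listed for dendritic cells, at 7.57 and 7.18 TPM, and Cpa3, listed for mast cells, at 1.85 and 2.1 TPM. The other 9 genes of this list were below a TPM of 1 in both libraries, so Zbtb46 alone is not read as a sign of dendritic cells. Cd207, which defines Langerhans cells, had 0 reads in both libraries, which allows up to 3 reads in each, and the T cell gene Cd3e had 0 and 2 reads. The part of these cells in the levels of the members was not tested.

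**Figure D4:**
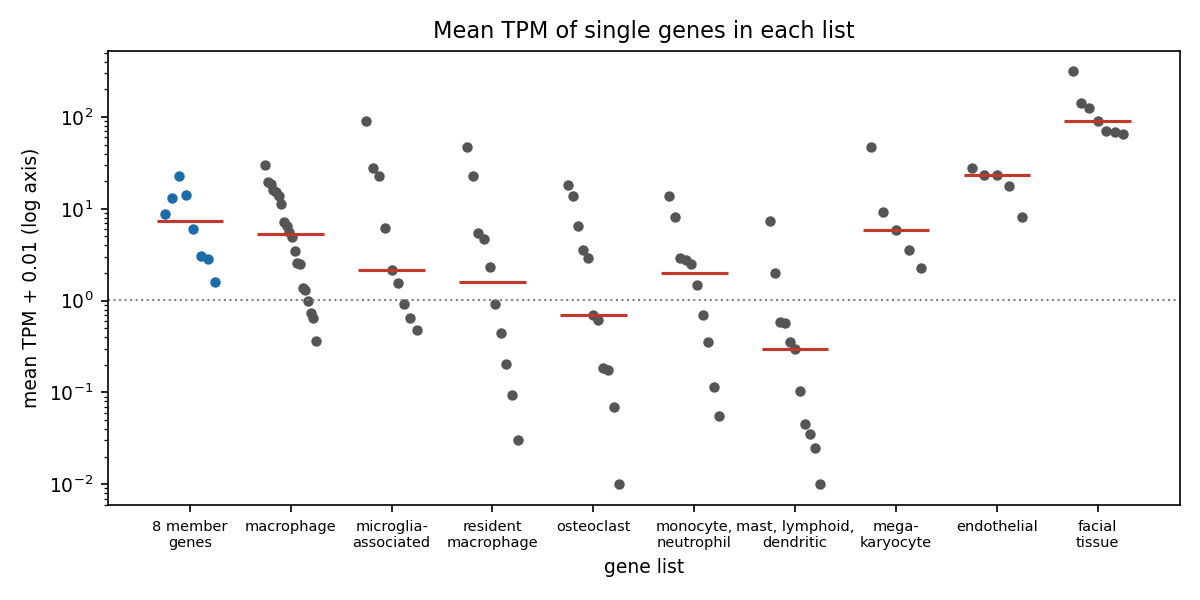
Mean TPM of single genes (points, log axis, with 0.01 added so that genes at 0 can be drawn) in the 8 macrophage member genes and 9 lists, with the median of each list as a bar and a TPM of 1 as a dotted line. The medians of the facial and endothelial lists lie above that of the 8 member genes, though single genes overlap, and most mast cell, lymphoid and dendritic genes lie below 1.

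Osteoclasts, bone-resorbing cells that also need Csf1r and Csf1, share some genes with macrophages. Of 11 listed genes 5 were detected, where 60.7% of all protein-coding genes were. The medians of the list were 0.66 and 0.70 TPM. Ctsk (15.89 and 20.06 TPM), Nfatc1 (14.11 and 13.77 TPM) and Acp5 (6.68 and 6.38 TPM) were highest, and each is also made by other cells. The fusion gene Dcstamp had 0 reads in both libraries, allowing up to 3 reads in each, Ocstamp had 4 and 6 reads, and Tnfrsf11a, the receptor that starts osteoclast formation, stood at 0.66 and 0.70 TPM.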

How the data were processed

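Gene and transcript tables of 2 libraries (10 ng of RNA each, per the labels) were used. Per the deposited file descriptions they were made on mm10 with GENCODE M21, and again with M4. Aligner, quantifier and strand setting: not given in the sources used here. As the file headers show, the deposited tables hold an expected count, TPM (maximum-likelihood and posterior mean), FPKM and, for transcripts, the percent of a gene's abundance. Summed expected counts were 28705073 and 41092194, and 2.85% and 3.10% were in rows naming no gene, mostly ERCC spike-ins. Such rows stayed out of the library sizes used for count ratios. The deposited TPM includes the spike-ins, which summed to 65218 TPM in replicate 1 and 71718 in replicate 2. All positions are mm10, from GENCODE M21.

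Levels are mean ± SD (n = 2). Count ratios of rounded expected counts carry exact conditional (Clopper-Pearson) 95% intervals, scaled by gene counts or, between genes, by effective length. The labels name no molecular identifiers, so reads may not be independent molecules, and intervals cover counting error only. No p-value was computed, since 1 group has no comparison. The intervals were tested on simulated data. Python 3.11.15, pandas 2.3.3, scipy 1.17.1 and edgeR 4.0.16 (TMM factors only) were used.

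The members, the lists and the naming rule were chosen with earlier results of these data known. The rule took all members, the 4 highest of each list, up to 3 genes of a list under a TPM of 1 in both libraries, and any gene of lists of up to 8. Genes named outside it (Vav1, C1s1, and the overlapping Hmgxb3, Med12l, Gm15894 and Gm15895) were chosen after their values were seen. Alternatives were the M4 release, posterior mean TPM, FPKM, spike-in and TMM scaling, other minimums and pseudocount, and each library alone. With 2 libraries no likeness of patterns was computed. Some genes of the lists are not reported here by name.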

Additional observations from a re-analysis of the deposited data

How the results depend on the processing

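The count of detected members was 9 with the M4 release, posterior mean TPM, FPKM, spike-in scaling, TMM scaling, a minimum of 0.5 TPM, and either library alone, and 6 with a minimum of 5 TPM. The mean log2 ratio of Csf1 over Il34 fell from 3.55 to 2.60 with posterior mean TPM and ranged from 3.12 to 3.97 in single libraries. The median log2 ratio of the members between the pools was 0.02 and turned to -0.10 with spike-in scaling, which by construction lowers all genes of replicate 2 together. No member passed 2-fold in the settings run, which included a pseudocount of 0.1, where 745 of all genes passed in place of 40. That count was 21 with posterior mean TPM, 22 with FPKM, 24 with TMM scaling and 21 over detected genes alone. The share of Il34-201 ran from 0 to 100% in single libraries, that of the long Csf1 form from 56.6% to 61.4% and that of the short form from 36.1% to 43.4%. The Csf1 shares differed from M4 by less than their SD. Depth limits Il34, with 15 reads in each library. No paired analysis was possible because both libraries belong to 1 group.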

Other observations

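Complement genes downstream of C1q were mostly low. Of 12 listed genes 5 were detected, where 60.7% of all protein-coding genes were. The medians of the list were 1.44 and 0.885 TPM. The proteases that join C1q in the first complex stood at 0.45 and 0.43 TPM (C1ra) and 1.10 and 0.84 TPM (C1s1), and the central component C3 at 0.44 and 0.29 TPM. C4b, the next substrate of the classical pathway, had 4.16 and 2 estimated reads. The inhibitor of the first complex, Serping1, stood apart at 19.56 and 19.29 TPM, close to C1qb.

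Receptors and ligands related to Csf1r and its ligands differed widely. Csf2 and Il3 had 0 reads in both libraries, which allows up to 3 in each, and Csf3 had 0 and 1. The receptor chain Csf2ra stood at 25.44 and 28.19 TPM, while Csf2rb, the chain it signals with, was at 1.77 and 0.87 TPM. Kit and its ligand Kitl were both present, at 10.91 and 13.40 TPM and at 9.65 and 10.11 TPM. Sdc1 and Ptprz1, cell surface proteins reported to bind Il34, stood at 135.9 and 143.54 TPM and at 10.04 and 7.86 TPM.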
